A study of Mus musculus with 24 samples.

Results

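The 6 RNA libraries compared here came from mouse bone marrow-derived macrophages (BMDMs): 3 from cells given Ctbp1 siRNA and then lipopolysaccharide (LPS), and 3 from cells given control siRNA and then LPS. They were chosen as the columns of the deposited expression table that carry those labels, and they are 6 of the 24 libraries of the series. BMDMs are primary macrophages grown in culture from bone marrow, here from male C57BL6/N mice aged 6 to 12 weeks and differentiated in medium with L929 cell supernatant. An siRNA is a short RNA duplex that lowers the mRNA it matches, and LPS is a component of the outer membrane of Gram-negative bacteria. All 6 cultures carried an siRNA and all 6 received 100 ng/ml LPS for 4 h. Every library was made from polyadenylated RNA with an unstranded kit. The replicates are numbered 1, 3 and 4 in both groups. The labels call them biological replicates without saying whether they came from separate mice or cultures, so p-values measure the spread between these samples.

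Other groups of the series serve as points of comparison. Each siRNA was also given with vehicle (PBS) in place of LPS, with 3 libraries per group, and an siRNA against Ctbp2 was given with LPS or vehicle in 3 libraries each. J774.1 cells, a macrophage line from a female BALB/c mouse, were labelled as a Ctbp1/2 double knockout or as wildtype, with 3 libraries each and with LPS in all 6. The labels do not say whether the knockout line is 1 clone. Every BMDM group carried an siRNA, and protein levels were not analysed here.

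CtBP1 and its paralog CtBP2 are co-repressors: they do not bind DNA themselves but are brought to genes by DNA-bound factors such as ZEB and KLF proteins, and they in turn bring histone deacetylases, histone methyltransferases and the demethylase LSD1. They bind NAD(H), which couples them to the metabolic state of the cell. A form of CtBP1 also acts in the cytoplasm, in the fission of Golgi and endocytic membranes. In macrophages, LPS acts through the receptor TLR4 to switch on cytokine, chemokine and interferon-response genes and to lower many genes of the resting state.

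With Ctbp1 siRNA in LPS, 12 genes differed from control siRNA, 10 of them lower and 2 higher. The promoters of 4 of the lower genes are shown because these genes mark the target itself and the endoplasmic reticulum, the mitochondrion and the lysosome. Capitals mark CACCC, the core bound by KLF3, or CACCTG, the E-box bound by ZEB1, on either strand, so that GGGTG and CAGGTG are marked too. Both motifs start with CACC, and no start position can match both. Each window holds the 250 bases before the annotated start in RefSeq, build GRCm38.p6, written 5′ to 3′ along the gene. The Ctbp1 window is chr5:33275005-33275254, minus strand, that of Pdia3 is chr2:121413652-121413901, plus strand, that of Slc25a5 is chrX:36795347-36795596, plus strand and that of Atp6v0d1 is chr8:105566065-105566314, minus strand.
Ctbp1: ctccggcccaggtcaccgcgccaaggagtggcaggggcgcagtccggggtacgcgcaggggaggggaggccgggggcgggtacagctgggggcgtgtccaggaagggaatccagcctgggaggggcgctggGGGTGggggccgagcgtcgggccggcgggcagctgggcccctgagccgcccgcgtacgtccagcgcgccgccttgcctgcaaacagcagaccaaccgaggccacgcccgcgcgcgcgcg
Pdia3: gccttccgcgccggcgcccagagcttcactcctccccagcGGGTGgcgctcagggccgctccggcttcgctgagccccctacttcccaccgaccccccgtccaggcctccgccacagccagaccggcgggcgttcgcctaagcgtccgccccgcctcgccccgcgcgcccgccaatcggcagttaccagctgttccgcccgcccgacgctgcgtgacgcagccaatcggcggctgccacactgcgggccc
Slc25a5: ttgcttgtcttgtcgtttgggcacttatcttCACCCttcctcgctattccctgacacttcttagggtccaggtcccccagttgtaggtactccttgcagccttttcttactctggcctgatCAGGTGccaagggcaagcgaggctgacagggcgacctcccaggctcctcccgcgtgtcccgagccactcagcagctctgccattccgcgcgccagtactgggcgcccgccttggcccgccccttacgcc
Atp6v0d1: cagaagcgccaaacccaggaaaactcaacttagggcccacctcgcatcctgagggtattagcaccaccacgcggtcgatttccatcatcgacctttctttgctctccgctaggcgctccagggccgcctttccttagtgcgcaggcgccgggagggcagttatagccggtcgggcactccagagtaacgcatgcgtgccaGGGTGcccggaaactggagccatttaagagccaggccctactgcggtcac
Of the 12 genes, 11 have a window in the RefSeq table. CACCTG was found in 2 of the 11 windows, those of Slc25a5 and Cerk, and in 17.2% of all 32851 windows of this length. CACCC was found in 6 of the 11 and in 52% of all windows. A match to these letters is a description of the sequence and not a binding site.

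Expression values are TPM, a length-corrected share of the transcripts of a library, so that library depth is unknown. Between 11595 and 11801 genes reached 1 TPM in the 6 libraries. The summed level of 16 macrophage markers was 17304 to 19553 TPM with Ctbp1 siRNA and 20009 to 20669 TPM with control siRNA, with Adgre1 (F4/80) at a mean of 1547 TPM with Ctbp1 siRNA and 1549 TPM with control siRNA. Lyz2 (lysozyme) averaged 7578 TPM with Ctbp1 siRNA and 9063 TPM with control siRNA. Neutrophil markers summed to 113 to 180 TPM with Ctbp1 siRNA and 127 to 188 TPM with control siRNA. Lymphocyte markers summed to 1.55 to 2.66 TPM with Ctbp1 siRNA and 2.13 to 2.91 TPM with control siRNA. Stromal and endothelial markers summed to 9.18 to 10.7 TPM with Ctbp1 siRNA and 9.06 to 13.3 TPM with control siRNA. The macrophage sums did not overlap between the groups, and Lyz2, the largest term, differed most. None of the 16 macrophage markers was called, and their median log2 fold change was −0.04. Of their estimates 3 were above 0 and 13 below, beside 4512 above and 3404 below over all genes tested. The part of the marker sums in the results was not tested. In bulk RNA, fewer cells of a type and less RNA per cell cannot be told apart. Control replicate 4 stood apart from control replicates 1 and 3 in its LPS-responsive genes, as described further on, and each count is given with and without it.

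The targeted mRNA was lower in every knockdown library. Ctbp1 stood at 56.0, 48.5 and 48.1 TPM with Ctbp1 siRNA, against 117, 119.9 and 131 TPM with control siRNA, in replicates 1, 3 and 4. The mean with Ctbp1 siRNA was 41.5% of control, a log2 fold change of −1.25 (SE 0.07, adjusted p = 8.45e-09, limma). In vehicle the knockdown had a log2 fold change of −1.25 and a difference between LPS and vehicle of −0.00 (95% interval −0.20 to 0.19). Ctbp2, the paralog, stood at 41.2, 42.2 and 44.8 TPM with Ctbp1 siRNA, against 37.4, 36.9 and 40.3 TPM with control siRNA. These values did not overlap, and the log2 fold change of 0.16 had a 95% interval of −0.03 to 0.34 (adjusted p = 0.669), so a rise of Ctbp2 was not shown. Of 19 tested members of the CtBP co-repressor complex and its partners, Ctbp1 was the only one called in LPS. The median log2 fold change of the list was 0.05, beside 0.01 over all genes tested.

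The 12 genes were 0.152% of the 7918 genes whose mean reached 10 TPM, called at an adjusted p under 0.05. The 10 lower genes were 0.126% and the 2 higher genes 0.0253% of those tested, and 635 genes had an unadjusted p under 0.05. In each of the 12 the 3 Ctbp1 siRNA values lay outside the 3 control values, which was so for 6.44% of all genes tested in the higher direction and 3.7% in the lower. All 12 were also called when control replicate 4 was left out, when 133 genes were called in all. Ctbp1, Pdia3, Slc25a5, Pcp4l1, Cerk and 1110008P14Rik kept their call whichever 1 of the 6 libraries was left out. The calls of Atp6v0d1, Slc15a4, Rab8b, Fez2 and Rps12 were lost when genes under the mean of 10 TPM were tested too, and those of Slc15a4, Rab8b and Rps12 were also lost after scaling by median of ratios or by TMM. A fit of the 6 libraries alone called Ctbp1 and Pdia3.

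Among proteins of the secretory pathway, Pdia3 was lower. It encodes ERp57, a thiol oxidoreductase that folds glycoproteins together with calnexin and calreticulin and takes part in peptide loading of MHC class I. Pdia3 stood at 232, 222 and 225 TPM with Ctbp1 siRNA, against 312, 326 and 325 TPM with control siRNA. Every knockdown library lay below every control. The log2 fold change was −0.50 (SE 0.03, adjusted p = 2.26e-07), and the mean was 70.4% of control. In vehicle it was 255 ± 5.44 TPM with Ctbp1 siRNA and 364 ± 4.80 TPM with control siRNA (SD, n = 3 each), a log2 fold change of −0.51 (adjusted p = 1.82e-07). Against Ctbp2 siRNA in LPS, which shares no library with the controls, the log2 difference was −0.47 (adjusted p = 4.08e-07). In J774.1 cells Pdia3 was at 512 ± 12.1 TPM in the double knockout and 526 ± 11.9 TPM in wildtype, a log2 difference of −0.04 (95% interval −0.11 to 0.03, adjusted p = 0.307).

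The other genes of the family were not called with it. Of 16 protein disulfide isomerases tested Pdia3 was the only one called, and the median log2 fold change of the list was 0.00. P4hb, the founding member of the family, stood at 254, 260.1 and 264 TPM with Ctbp1 siRNA, against 246, 252 and 251 TPM with control siRNA, a log2 fold change of 0.06 (95% interval −0.02 to 0.13, adjusted p = 0.745). None of 21 ER chaperones and lectins was called, where the smallest adjusted p was 0.406 and the median log2 fold change 0.01. Hspa5 (BiP) was at −0.03 and Hsp90b1 (GRP94) at 0.01 on that scale. None of 19 tested genes of antigen presentation by MHC was called, with a median of −0.06, B2m at 0.03 and H2-K1 at 0.06.

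Slc25a5, the ADP/ATP carrier ANT2 of the inner mitochondrial membrane, was lower as well. It stood at 213, 215 and 204 TPM with Ctbp1 siRNA, against 287, 269 and 281 TPM with control siRNA. The highest knockdown value lay below the lowest control value. The log2 fold change was −0.41 in LPS (SE 0.05, adjusted p = 0.000441) and −0.42 in vehicle (adjusted p = 0.000256). The difference from Ctbp2 siRNA was −0.38 (adjusted p = 0.000398). In J774.1 cells it was at 1065 ± 8.98 TPM in the double knockout and 1217 ± 19.8 TPM in wildtype, a log2 difference of −0.19 (adjusted p = 0.000246). Slc25a5 was the only member called lower of 25 tested Slc25 carriers, whose median was 0.02. Its close relative Slc25a4 (ANT1) stood at 109.6, 121 and 114 TPM with Ctbp1 siRNA, against 115, 115 and 115 TPM with control siRNA (95% interval −0.08 to 0.08 on the log2 scale). No nuclear subunit of oxidative phosphorylation was called among 37, with a median of 0.03. Estimates were above 0 for 26 of the 37, beside 4512 of all 7918 genes tested. The 13 mitochondrially encoded genes held no call in LPS either, with a median of 0.06, and −0.17 in vehicle, where 1 was called lower.

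Atp6v0d1 was lower and Slc15a4 higher. Atp6v0d1 encodes the d subunit of the membrane sector of the V-ATPase, the proton pump that acidifies lysosomes. It stood at 154, 155 and 149 TPM with Ctbp1 siRNA, against 175, 171 and 181 TPM with control siRNA. The values did not overlap, with a log2 fold change of −0.20 (SE 0.04, adjusted p = 0.0359) in LPS and −0.19 in vehicle (adjusted p = 0.0422). It was the only call among 18 tested V-ATPase subunits, whose median was 0.02. Slc15a4, a peptide and histidine transporter of the endolysosome that is needed for signalling by TLR7 and TLR9, was the larger of the 2 higher genes. Slc15a4 stood at 100.2, 98.8 and 87.0 TPM with Ctbp1 siRNA, against 69.6, 68.1 and 67.4 TPM with control siRNA, a log2 fold change of 0.47 (SE 0.09, adjusted p = 0.0369). In vehicle it was 74.2 ± 2.88 TPM with Ctbp1 siRNA and 81.8 ± 6.21 TPM with control siRNA (SD, n = 3 each), a log2 fold change of −0.14, and the difference between LPS and vehicle was 0.61 (adjusted p = 0.144). In J774.1 cells Slc15a4 was at 37.1 ± 6.15 TPM in the double knockout and 26.7 ± 1.23 TPM in wildtype, a log2 difference of 0.45 (adjusted p = 0.00982). The call of Atp6v0d1 was lost when any of control replicates 1 and 3 or any Ctbp1 siRNA replicate was left out, with adjusted p up to 0.21. That of Slc15a4 was lost without control replicate 1 or 3 or Ctbp1 siRNA replicate 1 or 3, with adjusted p up to 0.197.

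In lipid signalling, Cerk was lower. It encodes ceramide kinase, which makes ceramide 1-phosphate, and LPS lowered it in these cells, with a log2 change of −2.39 with control siRNA. Cerk stood at 16.8, 14.6 and 15.6 TPM with Ctbp1 siRNA, against 21.8, 22.9 and 28.8 TPM with control siRNA. Control replicate 4 held the highest value and the groups did not overlap. The log2 fold change was −0.61 (SE 0.08, adjusted p = 0.00221), and −0.49 without control replicate 4 (adjusted p = 0.00203). In vehicle it was −0.39 (adjusted p = 0.0686), with 100.4 ± 3.95 TPM with Ctbp1 siRNA and 132 ± 5.11 TPM with control siRNA (SD, n = 3 each).

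Pcp4l1, a small protein with an IQ motif related to the calmodulin regulator Pcp4, was lower too. It stood at 36.1, 41.6 and 41.3 TPM with Ctbp1 siRNA, against 57.6, 56.9 and 75.3 TPM with control siRNA, and control replicate 4 was again the highest. The log2 fold change was −0.65 (SE 0.09, adjusted p = 0.00169) and −0.52 without control replicate 4 (adjusted p = 0.00106). Pcp4l1 was not called in vehicle (−0.25, adjusted p = 0.284), nor against Ctbp2 siRNA in LPS (−0.24, adjusted p = 0.0983), where it was called without control replicate 4 (adjusted p = 0.0175). The change of its LPS response by Ctbp1 siRNA was −0.40 with a 95% interval of −0.66 to −0.14 (adjusted p = 0.454).

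Fxyd2, the regulatory gamma subunit of the Na,K-ATPase best known from kidney, was lower, at a low level of expression. It stood at 13.9, 13.2 and 15.5 TPM with Ctbp1 siRNA, against 20.0, 22.7 and 18.5 TPM with control siRNA. The log2 fold change was −0.50 in LPS (SE 0.08, adjusted p = 0.00833) and −0.68 in vehicle (adjusted p = 0.000256). The opposite direction was called in J774.1 cells, where Fxyd2 was at 877 ± 24.9 TPM in the double knockout and 561 ± 10.8 TPM in wildtype, a log2 difference of 0.64 (adjusted p = 6.06e-07). No other of 5 tested FXYD and Na,K-ATPase genes was called, with Fxyd5 at 0.04 on the log2 scale. Without control replicate 3, or without Ctbp1 siRNA replicate 1 or 3, the adjusted p of Fxyd2 in LPS was above the threshold, at up to 0.0884.

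Genes of membrane and motor traffic held a pair of small calls. Rab8b, a small GTPase of exocytic and phagosomal traffic, stood at 109.6, 95.1 and 102 TPM with Ctbp1 siRNA, against 124, 127 and 117 TPM with control siRNA. Its log2 fold change was −0.26 (SE 0.05, adjusted p = 0.0419) in LPS and −0.27 in vehicle (adjusted p = 0.0325). It was the only call among 30 Rab genes and relatives, whose median was 0.01, and Rab8a was at 0.03. In J774.1 cells Rab8b was called in the opposite direction, at 203 ± 3.88 TPM in the double knockout and 157 ± 1.76 TPM in wildtype (log2 difference 0.36, adjusted p = 1.81e-05). Fez2, of a family of kinesin adaptors, stood at 25.8, 24.6 and 25.4 TPM with Ctbp1 siRNA, against 30.1, 32.1 and 30.9 TPM with control siRNA, a log2 fold change of −0.29 (adjusted p = 0.049). Both calls were lost without control replicate 1 or 3 or Ctbp1 siRNA replicate 3 or 4, and that of Fez2 also without Ctbp1 siRNA replicate 1, with adjusted p up to 0.242 for Rab8b and 0.243 for Fez2. The remaining lower gene, 1110008P14Rik, carries the name of a RIKEN cDNA clone. It stood at 66.5, 64.3 and 61.8 TPM with Ctbp1 siRNA, against 86.6, 84.5 and 85.2 TPM with control siRNA, without overlap. Its log2 fold change was −0.41 in LPS (adjusted p = 0.000116) and −0.34 in vehicle (adjusted p = 0.000815).

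Rps12, a protein of the small ribosomal subunit, was the other higher gene and the only one whose LPS response was called as changed. It stood at 931, 952 and 894 TPM with Ctbp1 siRNA and LPS, against 790.0, 734 and 785 TPM with control siRNA and LPS. In vehicle it stood at 972, 919.6 and 968 TPM with Ctbp1 siRNA, against 1043, 1112 and 1093 TPM with control siRNA. The order of the groups was thus opposite in LPS and in vehicle, without overlap in either. The log2 fold change was 0.27 in LPS (SE 0.05, adjusted p = 0.0359) and −0.18 in vehicle (adjusted p = 0.14), and the difference between them was 0.45 (SE 0.07, adjusted p = 0.0412). That call was 0.0126% of the genes tested, with 520 at an unadjusted p under 0.05. The call in LPS was lost without any of control replicates 1 and 3 or of the Ctbp1 siRNA replicates, with adjusted p up to 0.196. Rps12 has processed copies in the genome, and an unstranded library does not separate overlapping transcripts, so its level is uncertain.

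**Figure D1:**
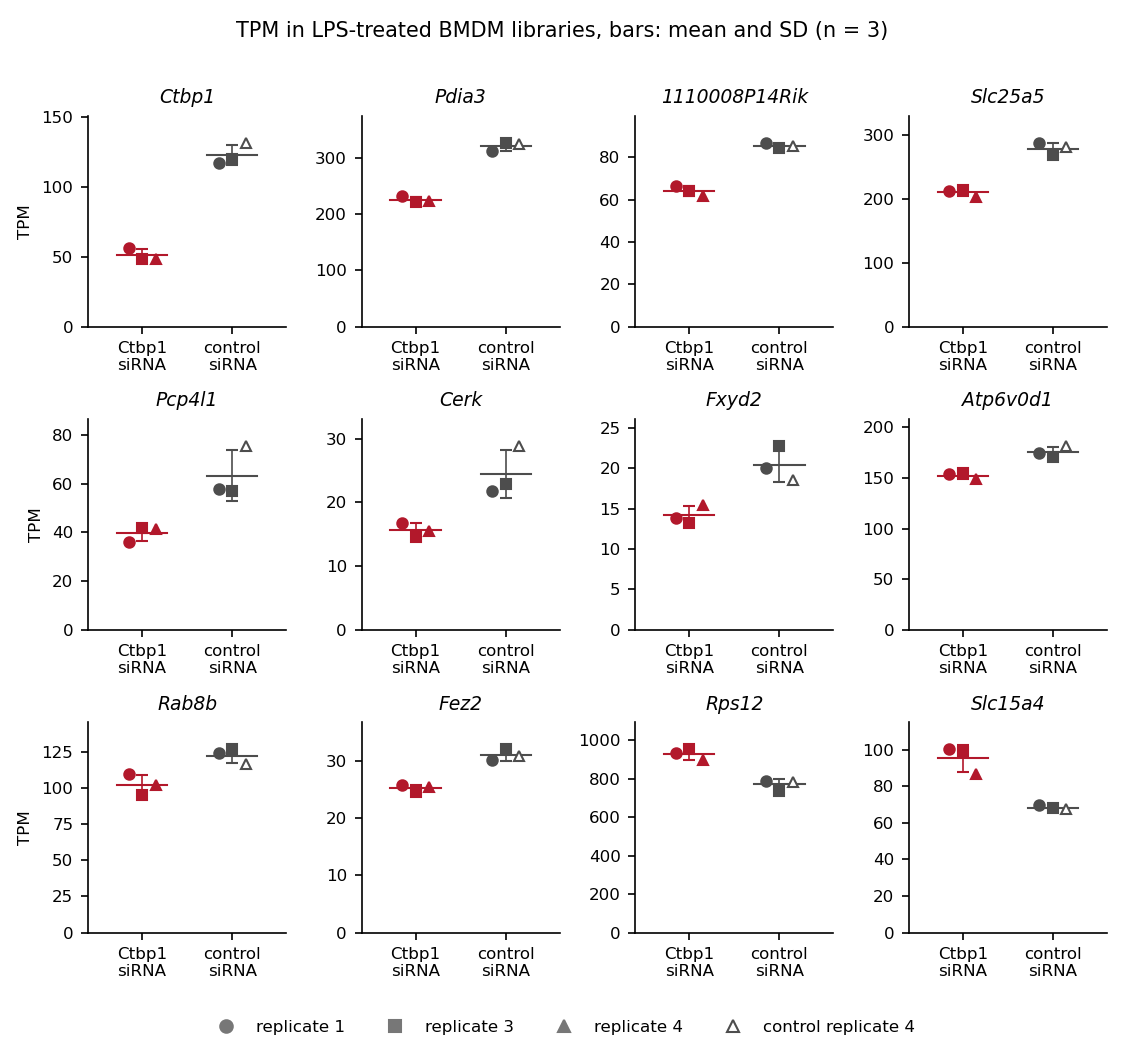
TPM of the 12 called genes in the 6 LPS libraries, with Ctbp1 siRNA on the left of each panel and control siRNA on the right, symbols for replicates 1, 3 and 4, lines for means and bars for SD (n = 3). In each panel the 3 Ctbp1 siRNA values lie outside the 3 control values, below them for 10 genes and above them for Rps12 and Slc15a4.

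The direction of these changes was the same in vehicle for most of the genes. In vehicle 17 genes were called (0.215% of those tested), 4 higher (0.0505%) and 13 lower (0.164%), and 7 of them were among the 12: Ctbp1, Pdia3, Slc25a5, 1110008P14Rik, Fxyd2, Atp6v0d1 and Rab8b. Of the 12, 10 had the same sign in vehicle, all except Rps12 and Slc15a4. Against Ctbp2 siRNA in LPS, 9 of the 12 were called in the same direction, where 6.79% of all genes tested were called; Pcp4l1, Fez2 and Rps12 were not, with adjusted p of 0.0983, 0.0723 and 0.118. Without control replicate 4 Pcp4l1 was called as well, at 0.0175, while Fez2 and Rps12 were not, at 0.0531 and 0.0976. The comparisons of Ctbp1 siRNA with control and with Ctbp2 siRNA share the Ctbp1 siRNA libraries. Ctbp2 siRNA was also set against control in LPS, sharing the controls, and 3.17% of genes were called there, 0.77% higher and 2.4% lower. Of the 12, Pcp4l1 was called in that comparison, at −0.41 (adjusted p = 0.0176), against −0.65 with Ctbp1 siRNA. The other estimates with Ctbp2 siRNA lay between −0.15 for Cerk and 0.14 for Rps12, with Pdia3 at −0.03 and Slc25a5 at −0.03. In J774.1 cells, 42% of genes tested were called, 25.4% higher and 16.6% lower in the double knockout. Of the 9 genes of the 12 tested there, Ctbp1, Slc25a5 and Slc15a4 were called in the same direction, Fxyd2 and Rab8b in the opposite one, and Pdia3, 1110008P14Rik, Atp6v0d1 and Rps12 were not called. The J774.1 cells were labelled as lacking both paralogs, with Ctbp1 at 19.9 ± 3.30 TPM in the double knockout and 161 ± 3.81 TPM in wildtype and Ctbp2 at 63.1 ± 1.38 TPM in the double knockout and 78.2 ± 3.52 TPM in wildtype. The J774.1 table was normalized apart from that of the BMDMs, and this side comparison was added after the values were seen.

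**Figure D2:**
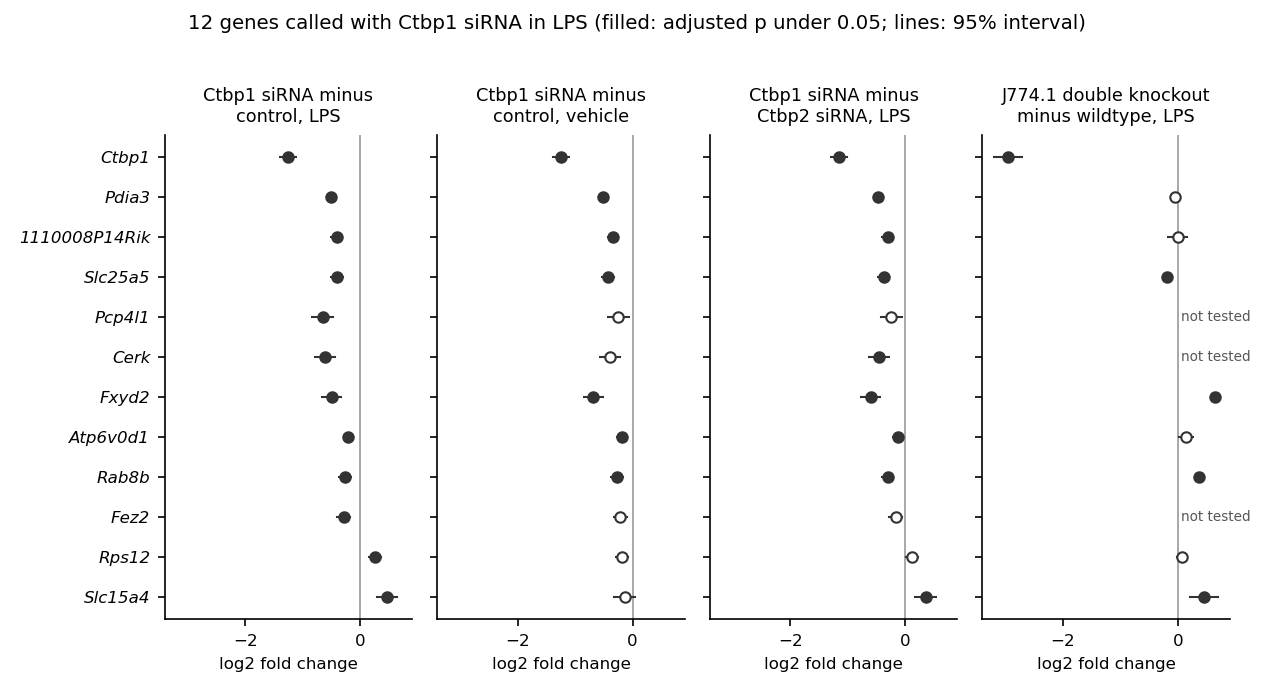
Log2 fold changes with 95% intervals of the 12 genes in 4 comparisons, Ctbp1 siRNA over control in LPS and in vehicle, Ctbp1 siRNA over Ctbp2 siRNA in LPS, and J774.1 double knockout over wildtype. Filled points have an adjusted p under 0.05. Pdia3 lies at −0.50, −0.51 and −0.47 in the first 3 panels and at −0.04 in J774.1 cells, and Fxyd2 lies below 0 in the first 3 and above 0 in J774.1 cells.

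Without control replicate 4, 133 genes were called in place of 12, 96 higher and 37 lower, among 7928 tested. These were 1.68% of the genes tested, 1.21% higher and 0.467% lower, and 1305 had an unadjusted p under 0.05. The comparison then rested on 3 Ctbp1 siRNA libraries and 2 controls. Replicate 4 was left out with its weaker LPS response known, so p-values of LPS-responsive genes in this fit may be too small. In 64 of the 96 higher genes the left-out control lay above the mean of the Ctbp1 siRNA libraries, and in 16 of the 37 lower genes it lay below that mean. Leaving out control replicate 1 or control replicate 3 in its place gave 7 called genes each.

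The lower genes in that fit included cytokines of the LPS response. Il6, which encodes interleukin-6, stood at 109.8, 120.1 and 105 TPM with Ctbp1 siRNA, against 191 and 209 TPM in control replicates 1 and 3 and 65.2 TPM in control replicate 4. The knockdown libraries thus lay between control replicate 4 and the other two controls. Its log2 fold change was −0.30 with all libraries (adjusted p = 0.832) and −0.83 without control replicate 4 (SE 0.09, adjusted p = 0.000173). Il12b, the p40 subunit shared by interleukin-12 and interleukin-23, stood at 62.7, 71.8 and 67.0 TPM with Ctbp1 siRNA, against 95.6, 124 and 38.4 TPM with control siRNA, with log2 fold changes of −0.20 (adjusted p = 0.905) and −0.69 without control replicate 4 (adjusted p = 0.0148). Il27, a subunit of interleukin-27, stood at 167, 156 and 152 TPM with Ctbp1 siRNA, against 222, 230.0 and 118 TPM with control siRNA. It was at −0.20 with all libraries and −0.51 without control replicate 4 (adjusted p = 0.0363). Tnf, the tumour necrosis factor gene, stood at 4041, 4081 and 4042 TPM with Ctbp1 siRNA, against 4782, 4982 and 3179 TPM with control siRNA, and its log2 fold change was −0.06 with all libraries (adjusted p = 0.935) and −0.27 without control replicate 4 (adjusted p = 0.0141). In all 4 genes control replicate 4 was the lowest of the 6 libraries.

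Of 13 tested cytokines none was called with all libraries, and the median log2 fold change was −0.06. Without control replicate 4 these 4 were called lower and the median was −0.27. In that fit 11 of 13 estimates were below 0, beside 2748 of all 7928 genes tested. With all libraries 7 of the 13 were below 0, beside 3404 of all 7918 genes tested. Il1b, interleukin-1 beta, stood at 2023, 2336 and 1808 TPM with Ctbp1 siRNA, against 2291, 2630.1 and 1131 TPM with control siRNA, and was called in neither fit (log2 fold change 0.11, and −0.26 without control replicate 4, adjusted p = 0.484). Among 15 chemokines none was called with all libraries. Cxcl3, a neutrophil chemoattractant, was called without control replicate 4, at 1526, 1417 and 1365 TPM with Ctbp1 siRNA, against 1965, 2085 and 919 TPM with control siRNA (log2 fold change −0.12, and −0.50 without control replicate 4, adjusted p = 0.0364). Cxcl2, its close relative, stood at 6099, 6286 and 5839 TPM with Ctbp1 siRNA, against 7248, 7499.5 and 4719.8 TPM with control siRNA, and was not called in either fit. Of 30 NF-kB subunits, inhibitors and feedback genes none was called in either fit, with a median of −0.08 without control replicate 4; Nfkb2 was at −0.02 with all libraries. The controls enter the comparison with Ctbp2 siRNA in LPS only through the shared estimate of the spread. There Tnf was at −0.42 (adjusted p = 0.037), Il12b at −1.01 (adjusted p = 0.0359) and Il6 at −0.59 (adjusted p = 0.187). Without control replicate 4 the estimates were the same, and the adjusted p was 4.05e-05 for Tnf, 0.000103 for Il12b and 0.000319 for Il6. Il6 thus passed the threshold through a smaller SE, 0.08 in place of 0.28. Control replicate 4 was left out with its low values of these genes known, so these p-values are no separate support.

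Of 41 tested interferon-response genes none was called with all libraries, where the smallest adjusted p was 0.406. Estimates were below 0 for 39 of the 41, beside 3404 of all 7918 genes tested. The median log2 fold change was −0.20, beside 0.01 over all genes tested. Without control replicate 4, 2 of the list were called lower and the median was −0.28, beside 0.04. In that fit all 41 estimates were below 0, beside 2748 of all 7928 genes tested. Measured against the mean of the Ctbp2 siRNA LPS libraries, the list's median was −0.09, 0.03 and 0.03 in the Ctbp1 siRNA replicates, and 0.26, 0.30 and 0.02 in the control replicates 1, 3 and 4. Control replicate 4 thus lay within the range of the Ctbp1 siRNA libraries. In vehicle the median difference of Ctbp1 siRNA from control was 0.02, and the median difference from Ctbp2 siRNA in LPS was −0.02. The called members of the list were Ifih1 and Herc6. Ifih1 encodes MDA5, a cytoplasmic sensor of double-stranded RNA. It stood at 144, 125 and 139 TPM with Ctbp1 siRNA, against 185, 174 and 124 TPM with control siRNA. Herc6, an ISG15 ligase in mouse, stood at 70.6, 70.9 and 67.0 TPM with Ctbp1 siRNA, against 88.2, 100.4 and 61.8 TPM with control siRNA. The log2 fold changes of Ifih1 and Herc6 without control replicate 4 were −0.40 (adjusted p = 0.0256) and −0.43 (adjusted p = 0.0256). Gbp6 and Oas1b, outside the list, were called lower in that fit too, at −0.43 (adjusted p = 0.0346) and −0.49 (adjusted p = 0.0497). Irf7, a transcription factor of the interferon response, was not called in either fit, with a log2 fold change of −0.17 with all libraries. Daxx, a histone chaperone and transcriptional regulator, stood at 78.5, 88.1 and 87.8 TPM with Ctbp1 siRNA against 107, 110.1 and 83.3 TPM with control siRNA and was called without control replicate 4 (−0.36, adjusted p = 0.0268).

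Further lower genes without control replicate 4 had other roles. Pnp, purine nucleoside phosphorylase, stood at 422, 394 and 399.7 TPM with Ctbp1 siRNA, against 511, 510.3 and 438 TPM with control siRNA, with no overlap even with control replicate 4 included (log2 fold change −0.26, adjusted p = 0.217, and −0.33, adjusted p = 0.0124, without it). Mouse Pnp has a near copy beside it, Pnp2, so its level is uncertain. Cd302, a C-type lectin receptor, stood at 93.3, 74.5 and 80.1 TPM with Ctbp1 siRNA, against 118, 102 and 93.6 TPM with control siRNA (−0.33, and −0.41, adjusted p = 0.0363, without control replicate 4), and it was also called in vehicle (−0.51, adjusted p = 0.0287). Cdkn1a, the cell cycle inhibitor p21, described as repressed by CtBP in other cells, was lower in that fit at 2235, 2033 and 2180.2 TPM with Ctbp1 siRNA, against 2535, 2499 and 1849 TPM with control siRNA (−0.23, adjusted p = 0.0365). It was 1 of 5 tested genes described as CtBP targets in other cells, of which none was called with all libraries, with a median of 0.02.

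The higher genes without control replicate 4 were mostly genes that LPS lowers. Cd300lb, an activating receptor of myeloid cells, stood at 56.8, 60.5 and 62.7 TPM with Ctbp1 siRNA, against 40.3, 43.9 and 75.1 TPM with control siRNA. Control replicate 4 was the highest of the 6 and replicates 1 and 3 the lowest. Its log2 fold change was 0.23 with all libraries (adjusted p = 0.748) and 0.50 without control replicate 4 (adjusted p = 0.000608). C3ar1, the receptor for complement C3a, was at 416, 448 and 446 TPM with Ctbp1 siRNA, against 352, 361 and 478 TPM with control siRNA (0.15, and 0.29, adjusted p = 0.00545, without control replicate 4). Plekho1, a PH domain protein, was at 89.4, 91.6 and 95.9 TPM with Ctbp1 siRNA, against 78.9, 71.1 and 115 TPM with control siRNA (0.09, and 0.30, adjusted p = 0.0223, without control replicate 4). Nfam1, a myeloid and B cell signalling receptor with an ITAM, was at 66.1, 57.7 and 71.9 TPM with Ctbp1 siRNA, against 53.0, 49.0 and 71.3 TPM with control siRNA (0.35, adjusted p = 0.0321, without control replicate 4). In all 4 genes control replicate 4 lay within or above the knockdown values.

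Emp1, a tetraspan membrane protein, was at 84.5, 91.0 and 90.9 TPM with Ctbp1 siRNA, against 71.2, 75.7 and 83.2 TPM with control siRNA, and did not overlap even with control replicate 4 included (0.21, adjusted p = 0.334, and 0.27, adjusted p = 0.0289, without it). The actin regulator Coro1c (0.26), the tubulin Tuba1c (0.26), the lysosomal prenylcysteine oxidase Pcyox1 (0.29), the endosomal protein Wdr91 (0.29) and the lysosomal membrane protein Gpr137b (0.35) were also called higher without control replicate 4, with adjusted p between 0.0223 and 0.0466. None of these genes was called with all libraries, where the adjusted p lay between 0.429 and 0.683 (limma). Their values in control replicate 4 were 97.5, 244, 55.3, 85.1 and 164 TPM, in the order named. The means with Ctbp1 siRNA were 97.5, 230, 55.5, 78.9 and 167 TPM. Gpr137b has a near copy annotated as Gpr137b-ps, so its level is uncertain. Fos, an immediate early transcription factor, was at 9.47, 10.1 and 13.5 TPM with Ctbp1 siRNA, against 6.53, 5.15 and 13.6 TPM with control siRNA, and was called without control replicate 4 (0.80, adjusted p = 0.0256), the only call among 16 immediate early genes.

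Of 27 tested lysosomal enzymes and membrane proteins none was called with all libraries and 2 were called higher without control replicate 4. The median log2 fold change was 0.10 in that fit, beside 0.05 with all libraries. In the fit without control replicate 4, estimates were above 0 for 25 of the 27, beside 5177 of all 7928 genes tested. With all libraries they were above 0 for 20 of the 27, beside 4512 of all 7918 genes tested. Ctsa, cathepsin A, was at 925, 971 and 958 TPM with Ctbp1 siRNA, against 819, 842 and 974 TPM with control siRNA (0.20, adjusted p = 0.0285, without control replicate 4). Tfeb, the transcription factor of lysosomal genes, was at 25.1, 24.6 and 22.7 TPM with Ctbp1 siRNA, against 19.3, 18.9 and 29.8 TPM with control siRNA (0.32, adjusted p = 0.0363, without control replicate 4). Lamp1, a lysosomal membrane glycoprotein, was at 1341, 1383 and 1385 TPM with Ctbp1 siRNA, against 1278, 1264 and 1373 TPM with control siRNA, and was not called (0.11, adjusted p = 0.108, without control replicate 4). Of 28 cell cycle and replication genes none was called with all libraries (median 0.03). Mcm7, of the replicative helicase, was called higher without control replicate 4. In that fit the median of the list was 0.17, and 26 estimates were above 0, beside 5177 of all 7928 genes tested. With all libraries 21 of the 28 estimates were above 0, beside 4512 of all 7918 genes tested. Mcm7 was at 12.996, 15.6 and 13.5 TPM with Ctbp1 siRNA, against 10.1, 9.80 and 13.5 TPM with control siRNA (0.45, adjusted p = 0.0363, without control replicate 4).

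**Figure D3:**
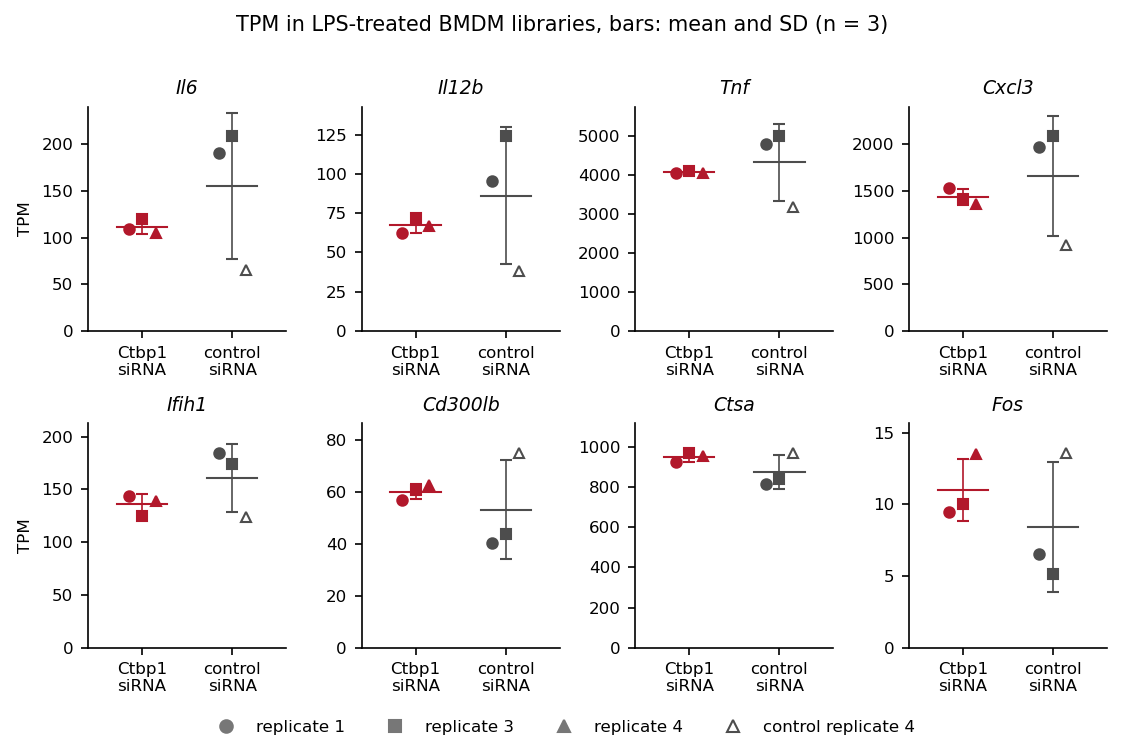
TPM of 8 genes called without control replicate 4, in the 6 LPS libraries, with Ctbp1 siRNA left of control siRNA, lines for means and bars for SD (n = 3). The open triangle is control replicate 4, which lies below the Ctbp1 siRNA values for Il6, Il12b, Tnf and Cxcl3 and above them for Cd300lb, Ctsa and Fos.

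To place the libraries on a common scale, genes were sorted by their LPS response in the Ctbp2 siRNA libraries. These enter the comparison only through the shared estimate of the spread. Their LPS libraries also set the zero of the scale, so other libraries are drawn toward a weaker response in both classes. The medians are therefore read against each other only. There were 269 genes induced and 168 repressed at least 4-fold. Against the mean of the Ctbp2 siRNA LPS libraries, induced genes had a median log2 difference of −0.12, −0.15 and −0.15 in Ctbp1 siRNA replicates 1, 3 and 4, and of −0.04, 0.01 and −0.34 in control replicates 1, 3 and 4. Repressed genes had medians of 0.20, 0.23 and 0.28 with Ctbp1 siRNA, and of 0.03, 0.02 and 0.47 with control siRNA. For both classes the Ctbp1 siRNA libraries lay between control replicate 4 and control replicates 1 and 3. Over all genes tested, the same medians were 0.06, 0.06 and 0.07 with Ctbp1 siRNA and 0.03, 0.02 and 0.10 with control siRNA.

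The median log2 fold change of Ctbp1 siRNA over control for induced genes was −0.02 with all libraries, −0.13 without control replicate 4, 0.02 without control replicate 1 and 0.04 without control replicate 3. For repressed genes it was 0.08 with all libraries, 0.23 without control replicate 4, close to 0 without control replicate 1 and −0.02 without control replicate 3. The direction of both medians therefore turned with the choice of controls. Genes repressed at least 2-fold by LPS made up 11% of those tested and held 59 of the 96 genes called higher without control replicate 4. Genes induced at least 2-fold made up 7.26% and held 14 of the 37 called lower.

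**Figure D4:**
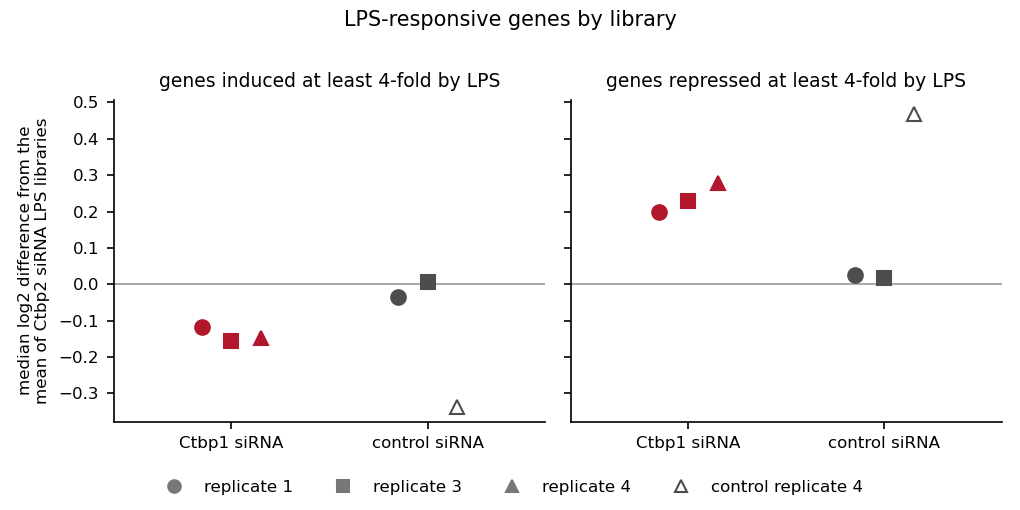
Median log2 difference from the mean of the Ctbp2 siRNA LPS libraries, for genes induced (left, 269 genes) and repressed (right, 168 genes) at least 4-fold by LPS in Ctbp2 siRNA cells, 1 point per library. The Ctbp1 siRNA libraries lie between control replicate 4 (open triangle) and control replicates 1 and 3 in both panels.

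The change of the LPS response by Ctbp1 siRNA, the interaction of siRNA and LPS, was called for Rps12 alone with all libraries. Without control replicate 4 it was called for 9 genes (0.114% of those tested), 8 with a higher and 1 with a lower response. The lower one was Il6 (−0.83, SE 0.12, adjusted p = 0.0216), which was listed at 0 in all vehicle libraries of both siRNAs. Its interaction therefore repeats its LPS fold change of −0.83 and is no separate result. With all libraries the interaction of Il6 was −0.30 (adjusted p = 0.968). Cd300lb (0.47, adjusted p = 0.034) and Rps12 (0.46, adjusted p = 0.0275) were among the 8. LPS changed Cd300lb by −2.28 with Ctbp1 siRNA and by −2.48 with control siRNA on the log2 scale, all libraries included. Rps12 lost its call in the interaction without any single library of the 4 groups other than control replicate 4 in LPS.

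The comparison of Ctbp1 with Ctbp2 siRNA in LPS called 538 genes. Ctbp1 siRNA was the higher in 434 (5.48% of those tested) and the lower in 104 (1.31%), and 2079 had an unadjusted p under 0.05. The median over all genes tested was 0.07. The cytokine list had a median of −0.38 with 3 members lower, the chemokine list −0.30 with none called, the NF-kB list −0.14 with 4 lower and the interferon list −0.02 with none called. Cell cycle genes had a median of 0.28 with 5 of 28 higher. Single libraries moved this count: it was 166 without Ctbp1 siRNA replicate 4 and 213 without Ctbp1 siRNA replicate 3. It was 162, 323 and 340 without Ctbp2 siRNA replicates 1, 3 and 4, and 1066 without control replicate 4, which enters the estimate of the spread.

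Other lists held no call in LPS with all libraries. The medians of their log2 fold changes were −0.01 for 24 genes of Toll-like receptor signalling, −0.03 for 16 of RNA sensing and interference (0.0058 without control replicate 4, with Ifih1 called lower), −0.08 for 14 of the integrated stress response and 0.03 for 16 heat shock chaperones. They were close to 0 for 22 genes of glycolysis and hypoxia, 0.03 for 17 of cholesterol, LXR and fatty acid metabolism and −0.09 for 9 of itaconate, nitric oxide and arginine metabolism. In the last of these Sat1, which acetylates polyamines, was called lower without control replicate 4 (log2 fold change −0.19, adjusted p = 0.0224). With all libraries Sat1 was at −0.09 (adjusted p = 0.773). Its mean was 371 TPM with Ctbp1 siRNA and 424 TPM in control replicates 1 and 3, with control replicate 4 at 341 TPM. All genes tested had a median of 0.01, and 0.04 without control replicate 4.

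**Figure D5:**
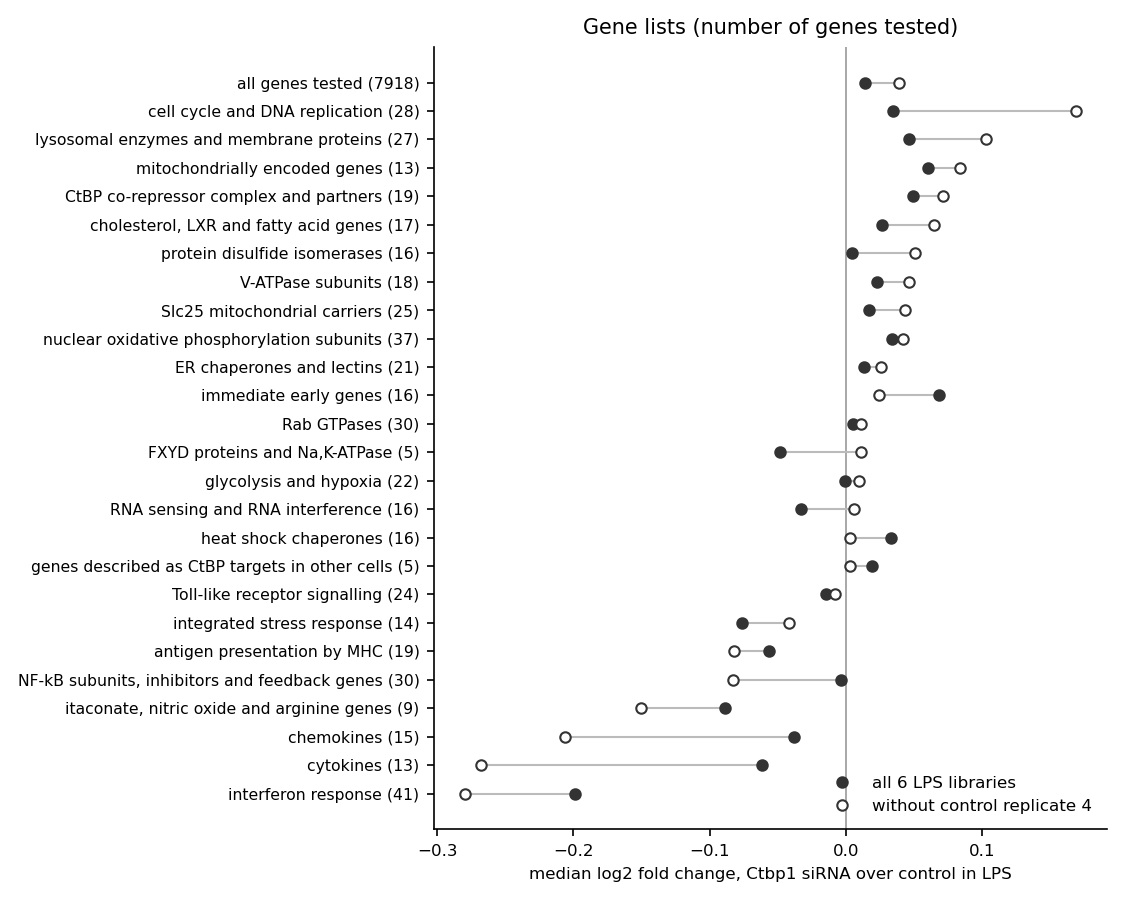
Median log2 fold change of Ctbp1 siRNA over control in LPS for 25 gene lists and for all genes tested, with all 6 libraries (filled) and without control replicate 4 (open), and with the number of genes tested in brackets. The interferon, cytokine and chemokine lists lie lowest without control replicate 4, at −0.28, −0.27 and −0.21, and the cell cycle list highest, at 0.17.

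The authors' deposited table lists 39 genes for the same comparison at an adjusted p under 0.05, 17 higher (0.121% of its 14068 genes with an adjusted p) and 22 lower (0.156%). All 12 genes called here are among the 39 of the authors' deposited table, each in the same direction. Of the others in the authors' deposited table, 24 were tested here and had the same sign, and 3 fell below the level filter. The deposited values come from the same libraries, so shared calls and directions are no separate support. Of the 39 in the authors' deposited table, 24 were called here without control replicate 4. Ctbp1 has a log2 fold change of −1.28 in the authors' deposited table, and Pdia3 one of −0.52. Emp1, called here without control replicate 4, is among the genes higher in the authors' deposited table, at 0.20 (adjusted p = 0.00675).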

How the data were processed

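Transcript levels were measured by RNA sequencing of polyadenylated RNA. The deposited BMDM table holds TPM, a share of transcripts corrected for length, per gene for 18 libraries, and the J774.1 table holds TPM for 6. Per the submitters' processing notes, FastQC, Salmon 1.9.0, DESeq2 1.44.0 and R 4.4.1 were used, with builds GRCm38, GRCm39 and mm39 named. TPM keeps no depth, so depth per sample and its precision are unknown. The authors' deposited table gives a mean normalized count as a signal, a log2 fold change and an adjusted p-value per gene, and these are used only where it is named.

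Values were taken as log2(TPM + 1), so that fold changes of low genes are understated. Genes whose mean reached 10 TPM were fitted with limma 3.58.1 in R 4.3.3, with 1 coefficient per group, all 18 BMDM libraries sharing 1 estimate of the spread (12 residual degrees of freedom), and moderated by trend and robustly. Two-sided p-values were adjusted by the Benjamini-Hochberg method over all genes tested, and calls were made at 0.05. The scripts were tested on simulated data. J774.1 libraries were fitted apart. The alternatives left out single libraries, used fewer groups or a replicate block, and varied the scaling, pseudocount, filter and moderation.

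The members and gene lists were chosen with earlier results of these data known. Genes named are Ctbp1, Ctbp2, all called genes (RIKEN clone names were to be counted only, and values of 1110008P14Rik are given after they were seen), and, without control replicate 4, called genes whose mean reached 50 TPM and that were among the 12 largest changes in each direction with no overlap of groups. The first 2 tested members of each list described and up to 4 called members are named too. Some genes that this rule names are not reported here. Replicate numbers were taken from the titles. Promoter sequences are from RefSeq, build GRCm38.p6, while the column names of the BMDM TPM values give mm39. Those of the J774.1 values give no build.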

Additional observations from a re-analysis of the deposited data

Results flagged for a closer look

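Rps12 was marked because the effect of Ctbp1 siRNA differed between LPS and vehicle by a test of the difference itself. The difference of log2 fold changes (LPS minus vehicle) was 0.45 (SE 0.07, adjusted p = 0.0412, limma), with Ctbp1 siRNA above control in 3 of 3 LPS libraries and below control in 3 of 3 vehicle libraries. No group holds the 4 samples needed to look for single values far from the others.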

How the results depend on the processing

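The Ctbp1 and Ctbp2 fold changes kept their direction and their side of the threshold under every alternative tried. Leaving out 1 library at a time gave 6 to 133 called genes in LPS in place of 12, with 0 to 96 higher in place of 2 and 6 to 37 lower in place of 10. For the change of the LPS response it gave 0 to 9 in place of 1, and for Ctbp1 against Ctbp2 siRNA 162 to 1066 in place of 538. The leave-outs of vehicle and Ctbp2 siRNA libraries were added after seeing the data. With the 6 libraries alone, 2 genes were called in LPS, 0 higher and 2 lower, and 138 between the siRNAs; with the 4 groups of Ctbp1 and control siRNA, 6 were called lower. Median-of-ratios scaling gave 0 higher calls in LPS, 0 changes of response and 330 calls between the siRNAs, and TMM scaling gave 0, 0 and 328. A minimum mean of 1 TPM gave 7 calls in LPS, 0 of them higher, and 0 changes of response. With no filter there were 0 higher calls in LPS, 2 changes of response and 227 calls between the siRNAs. Moderation without trend or robust estimation gave 0 higher calls and 0 changes of response. Fez2 was lost with a pseudocount of 5.

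Whether replicate numbers pair the samples was not settled by the labels or the values. Deviations of same-numbered libraries from their group means correlated at 0.0510, 0.122 and 0.119, not all above 0.1. Each Ctbp1 siRNA library correlated best with its own number, and unlike numbers correlated at −0.136 to 0.00863. With the replicate block, 13 genes were called in LPS, 5 higher and 8 lower. They hold 9 of the 12, and Slc15a4, Rab8b and Fez2 were lost (adjusted p up to 0.0525). The block gave 0 for the change of response and 914 between the siRNAs. With the block and without control replicate 4, these counts were 260 (166 higher, 94 lower), 28 and 1435.

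Some uncalled estimates turned direction, and the cause was not tested. Over the fits that left out 1 library, the log2 fold change ran from −0.27 to 0.056 for Tnf, from −0.69 to 0.14 for Il12b, from −0.50 to 0.094 for Cxcl3, from −0.28 to 0.054 for Cxcl2, from −0.26 to 0.34 for Il1b, from −0.044 to 0.30 for Plekho1 and from −0.040 to 0.031 for Slc25a4. For Tnf, Il12b, Cxcl3, Cxcl2 and Il1b the lowest value came without control replicate 4. With the block and without control replicate 4, Il1b was at −0.25. TPM gives no depth, so counting error could not be set beside the spread of 3 libraries per group.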
